A study of Homo sapiens with 6 samples.

Results

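The 9 genes described here encode the proteins that fasten a basal epithelial cell to the laminin-332 of its basement membrane: the laminin chains LAMA3 and LAMB3, the integrin subunits ITGA6, ITGB4 and ITGA3, the transmembrane collagen COL17A1, the plakins DST and PLEC, and the tetraspanin CD151. They were taken by name from the deposited gene table, which held all 9 among 26524 genes, and all 9 passed the filter on low counts. The samples were 3 shLIS1 and 3 control samples of SCC25, an established human line from a squamous carcinoma of the tongue. In shLIS1 samples, labelled as a knockdown, a short hairpin lowers LIS1, the dynein regulator encoded by PAFAH1B1. The labels do not state the hairpin sequence, whether the 3 shLIS1 samples carry 1 hairpin or several, or whether control cells received a hairpin. All samples were treated as 1 batch, although their titles name none. Nothing in the labels says that replicates came from separate cultures, so the p-values measure the spread between these samples, which may be technical.

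In stratified epithelia the hemidesmosome joins the keratin network inside the cell to laminin-332 outside it. The integrin α6β4 and collagen XVII span the membrane, plectin and the epithelial form of dystonin (BP230) link them to keratin filaments, and laminin-332, a trimer that includes the α3 and β3 chains, is the ligand. The integrin α3β1 binds the same laminin from focal adhesions, and CD151 associates with both integrins. Laminin-332 and its receptors are also used by squamous carcinoma cells when they migrate.

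Start sites of 5 of the 9 genes are in the RefSeq promoter table for GRCh38.p14: those of DST, COL17A1, ITGA6, LAMA3 and LAMB3, 10 in all. PLEC, ITGB4, ITGA3 and CD151 have no entry. The 250 bases before each start were searched on both strands for TGANTCA, the AP-1 motif, which matches its own reverse complement. It was found before 2 of the 10 starts, the 1 start of LAMA3 and 1 of the 3 starts of LAMB3. Of the 35116 promoters in the table, 6.57% hold it. The other LAMB3 starts, among them the gene's annotated start, have no match. DST and ITGA6, which also rose in shLIS1 cells, have no match before any start. The LAMA3 start lies 183567 bases inside the gene, and the LAMB3 start with the match lies 1051 bases downstream of the gene's annotated start. The promoters of these 2 starts are printed beside that of COL17A1, which holds no match. All 3 genes rose in shLIS1 cells. The 5 genes searched are the same 5 that were called higher in the fit without the offset described below. No gene outside these rises was searched, so the motif cannot be compared between rises and the other genes. Capitals mark the motif, and a match is not evidence of a bound site.
LAMA3, chr18:23872770-23873019, plus strand: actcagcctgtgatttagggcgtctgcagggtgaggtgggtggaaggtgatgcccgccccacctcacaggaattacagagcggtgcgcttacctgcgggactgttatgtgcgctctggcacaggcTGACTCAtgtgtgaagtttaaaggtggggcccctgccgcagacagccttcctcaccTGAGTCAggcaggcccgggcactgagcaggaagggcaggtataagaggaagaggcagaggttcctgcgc
LAMB3, chr1:209651375-209651624, minus strand: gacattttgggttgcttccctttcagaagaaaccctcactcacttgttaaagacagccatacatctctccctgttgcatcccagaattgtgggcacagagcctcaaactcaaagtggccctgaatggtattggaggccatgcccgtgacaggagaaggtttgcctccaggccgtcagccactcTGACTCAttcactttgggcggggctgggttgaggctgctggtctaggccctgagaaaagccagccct
COL17A1, chr10:104085881-104086130, minus strand: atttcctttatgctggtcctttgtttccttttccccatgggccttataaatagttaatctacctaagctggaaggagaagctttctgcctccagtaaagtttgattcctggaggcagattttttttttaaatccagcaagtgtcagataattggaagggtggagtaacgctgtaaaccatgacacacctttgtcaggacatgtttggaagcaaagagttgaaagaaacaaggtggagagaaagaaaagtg
In LAMA3 the motif occurs as TGACTCA beginning 125 bases before the start and as TGAGTCA beginning 69 bases before it. In LAMB3 it occurs as TGACTCA, 67 bases before the start. Gene counts do not show which start site was used.

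Total counts were between 17674881 and 22790599 in shLIS1 libraries and between 15661916 and 20549728 in control libraries, and the lowest count of any of the 9 genes was 1839. PAFAH1B1 averaged 111 ± 2.17 CPM (the unit of all levels here, counts scaled to the TMM library size) in shLIS1 cells and 159 ± 5.56 CPM in control cells (SD, n = 3 each), so 69.8% was left. Control library 1 stood apart from control libraries 2 and 3 on the second principal component, at 27.1 against -16.4 and -14.1. The fold changes of all genes followed transcript composition, with a median log2 fold change of 0.28 in the 20% of tested genes of lowest GC content and -0.28 in the 20% of highest. They also followed transcript length, with a median of -0.19 in the shortest 20% and 0.18 in the longest 20%, from 5570 bases up. DST, PLEC, LAMA3, ITGB4, COL17A1 and ITGA6 are in that longest 20%. The 9 genes and the related lists are therefore also given with an offset that removes the trend over transcript length and GC content. The log2 fold change of PAFAH1B1 was -0.52, and -0.81 with the offset. Squamous markers were abundant, with a sum over 7 genes of 10176 to 10921 CPM in shLIS1 libraries and 11555 to 11758 CPM in control libraries. They went both ways, with KRT6A (0.27), DSG3 (0.49) and CDH1 (0.16) called higher and KRT5 (-0.26), KRT14 (-0.50) and TP63 (-0.14) called lower on the log2 scale. With the offset KRT5 (-0.06) and CDH1 (0.09) lost their calls, and SFN, not called without it (-0.03), was higher (0.33). KRT6A (0.45), DSG3 (0.22), KRT14 (-0.17) and TP63 (-0.39) kept theirs. Of 24 markers of fibroblasts, endothelium, immune cells and nerve, 20 were in the table and 9 passed the filter. The most abundant were CD14, at 8.22 CPM in shLIS1 and 14.1 CPM in control cells, COL1A1, at 8.98 CPM in shLIS1 and 12.8 CPM in control cells, and CDH5, at 6.66 CPM in shLIS1 and 12.6 CPM in control cells, each called lower. COL1A2, LUM, VWF, MAP2 and TUBB3 averaged 1.10 to 3.66 CPM in shLIS1 and 0.860 to 2.96 CPM in control cells, with COL1A2 called lower, and PDGFRB, also called lower, averaged 0.467 CPM in shLIS1 and 0.961 CPM in control cells. With the offset PDGFRB lost its call, while MAP2 was called lower (-0.69) and TUBB3 higher (1.09). Summed levels in shLIS1 and control libraries were 13.3 to 15.9 and 17.1 to 21.9 CPM for fibroblast, 7.15 to 8.82 and 12.8 to 17.2 CPM for endothelial, 7.81 to 9.01 and 13.8 to 14.9 CPM for immune, and 3.05 to 4.33 and 3.28 to 4.17 CPM for nerve markers. DCN, LYZ and SOX10 had 0 counts in the shLIS1 libraries, where 3 counts are 0.130 to 0.170 CPM. Their part in the results was not tested.

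Of the 9 genes, 5 were higher in shLIS1 cells, 1 was lower and 3 did not pass (edgeR quasi-likelihood test, Benjamini-Hochberg adjusted p below 0.05 over 14964 genes). Across all tested genes 23.5% were called higher, 24.9% lower and 48.4% in either direction. The rises were those of DST, LAMA3, ITGA6, LAMB3 and COL17A1, and the fall was that of CD151. Cultures were sequenced in bulk, so a change in the share of cells that express a gene and a change in RNA per cell cannot be told apart. The median log2 fold change of the 9 genes was 0.17, against -0.01 over all tested genes. Tested genes with transcripts of 5570 bases or more had a median of 0.18. With the offset, 8 rose, 0 fell and CD151 did not pass, against 17.7% of all genes higher, 24% lower and 41.8% in either direction, and the median was 0.32 against -0.03. The 3 libraries of each group did not overlap for 7 of the 9 genes, 6 higher and 1 lower in shLIS1 cells, while 56.1% of all genes did not overlap, 27.1% higher and 29% lower. By mean CPM the 9 genes stood between percentiles 90.6 and 99.4 of the tested genes. Small changes are called more readily at high counts, and the shares over all genes were not matched for level.

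**Figure D1:**
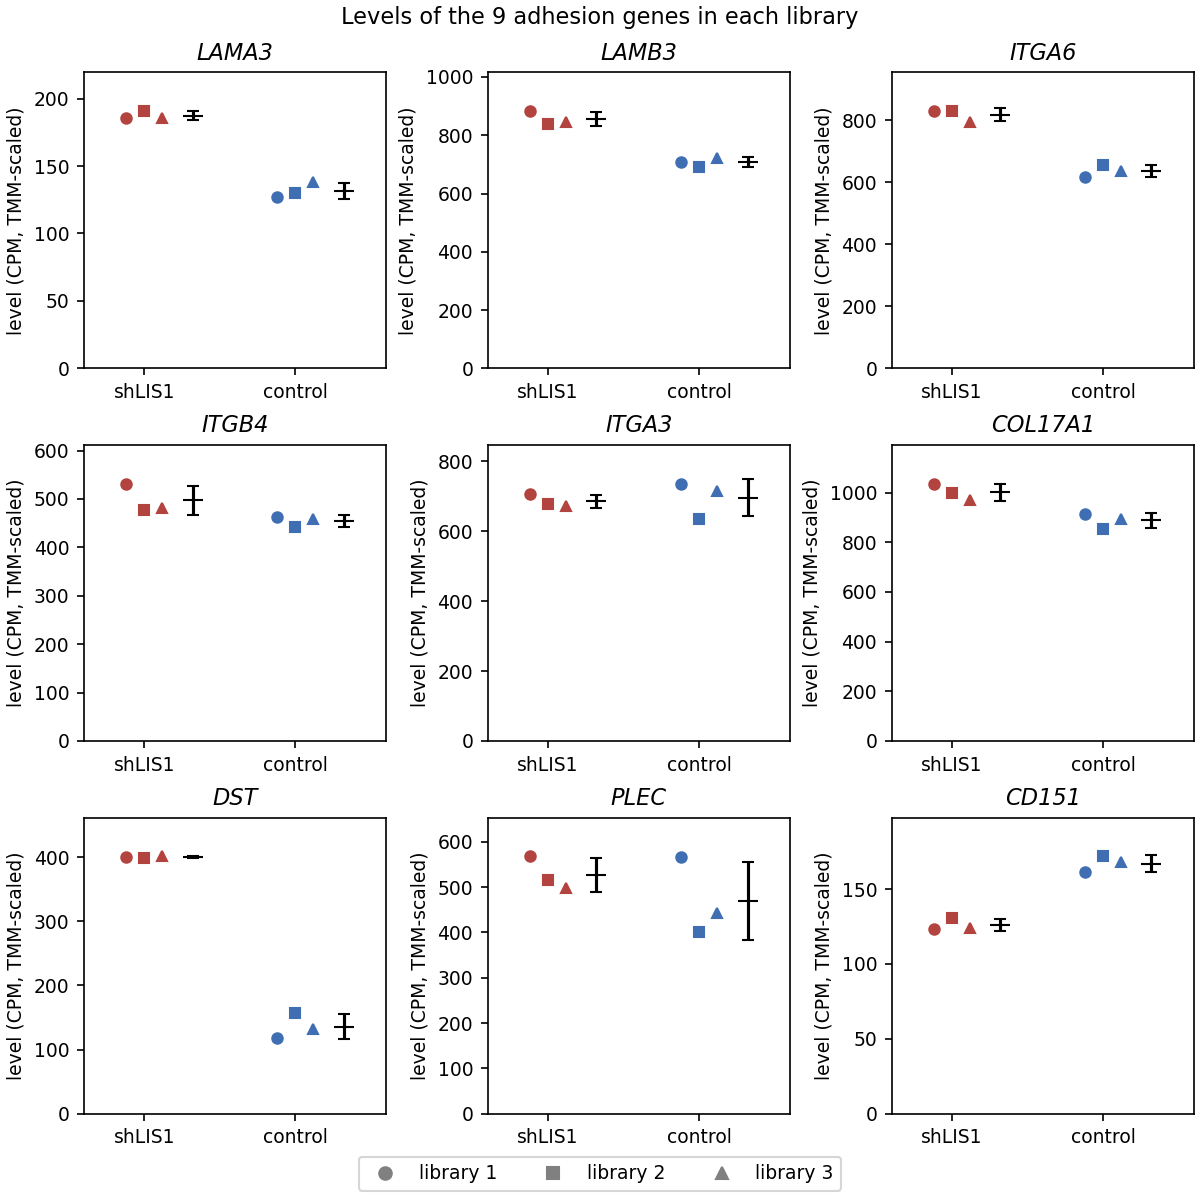
Level of each of the 9 genes in CPM (vertical axis from 0, scaled library sizes) in the 3 shLIS1 libraries (red) and the 3 control libraries (blue). Points are single libraries, with the mean and SD beside them. DST is between 399 and 402 CPM in shLIS1 and between 118 and 157 CPM in control libraries, while the groups overlap for PLEC and ITGA3.

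Both ligand genes among the 9 rose. LAMA3 (ENSG00000053747, chromosome 18, 23689453 to 23956222, plus strand, build hg38), which encodes the α3 chain, had 186, 191 and 185 CPM in shLIS1 libraries 1 to 3, against 127, 129.7 and 138 CPM in control libraries 1 to 3. Every shLIS1 library was above every control library. The means were 187 ± 3.05 CPM in shLIS1 and 132 ± 6.02 CPM in control cells (SD, n = 3 each), that is, a log2 fold change of 0.51 (edgeR adjusted p = 9.7e-08, SE 0.05). LAMB3 (ENSG00000196878, chromosome 1, 209614870 to 209652425, minus strand), which encodes the β3 chain, had 884, 838 and 846 CPM in shLIS1 libraries, against 709.7, 689 and 723 CPM in control libraries. Again the groups did not overlap, and the log2 fold change was 0.27 (edgeR adjusted p = 6.9e-05, SE 0.05). With the offset both chains stayed higher, LAMA3 at 0.42 and LAMB3 at 0.45.

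Among the receptors the α6 subunit rose and its partner did not pass. ITGA6 (ENSG00000091409, chromosome 2, 172427354 to 172506459, plus strand), which pairs with β4 in hemidesmosomes and can pair with β1, had 830.0, 829.5 and 795 CPM in shLIS1 libraries, against 616, 656 and 635 CPM in control libraries. The groups were well apart, with a log2 fold change of 0.36 (edgeR adjusted p = 2.9e-06, SE 0.05). With the offset 30.3% of this change was left, at 0.11 (SE 0.04, adjusted p = 0.044), and the offset fit with the replicate number as a block did not call it (adjusted p = 0.095).

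ITGB4 (ENSG00000132470, chromosome 17, 75721328 to 75757818, plus strand), whose long cytoplasmic tail binds plectin, had 532, 477 and 482 CPM in shLIS1 libraries, against 463, 441 and 459 CPM in control libraries. All shLIS1 values were above all control values, by a margin smaller than the spread within the shLIS1 group. Its log2 fold change of 0.13 (95% confidence interval 0.02 to 0.24) missed the threshold (edgeR adjusted p = 0.053). The adjusted p was between 0.023 and 0.269 over the 14 alternatives without an offset, 5 of which called it higher, among them DESeq2 (adjusted p = 0.040) and the fit without control library 1. With the offset it was higher at 0.34 (SE 0.05, adjusted p = 1.0e-05).

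ITGA3 (ENSG00000005884, chromosome 17, 50055968 to 50090481, plus strand), the α3 subunit that pairs with β1, had 706, 678 and 672 CPM in shLIS1 libraries, against 736, 636 and 715 CPM in control libraries. All 3 shLIS1 values lay within the range of the control values. The log2 fold change was -0.02 (95% confidence interval -0.13 to 0.09, edgeR adjusted p = 0.789). With the offset the sign turned and the gene was called higher, at 0.18 (SE 0.04, adjusted p = 0.0018), with 738 ± 16.4 CPM in shLIS1 and 649 ± 20.7 CPM in control cells after the offset (SD, n = 3 each). ITGB1, the partner of α3, had a log2 fold change of 0.06 that did not pass (adjusted p = 0.334), and fell by 0.20 on the log2 scale with the offset (adjusted p = 0.0014).

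COL17A1 (ENSG00000065618, chromosome 10, 104031286 to 104085880, minus strand), which encodes the collagen XVII that spans the membrane beside α6β4, had 1037, 1000.2 and 969 CPM in shLIS1 libraries, against 916, 854 and 895 CPM in control libraries. The groups did not overlap. The change was small, 1.13-fold or a log2 fold change of 0.17 (edgeR adjusted p = 0.0052, SE 0.05), and it was called in all 17 alternatives, with log2 fold changes between 0.13 and 0.28.

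The plakins differed in the size of their change. DST (ENSG00000151914, chromosome 6, 56457987 to 56954830, minus strand) encodes dystonin, whose epithelial isoform is the keratin linker of the hemidesmosome and whose other isoforms are made in neurons and muscle. It had 401, 399 and 402 CPM in shLIS1 libraries, against 118, 157 and 133 CPM in control libraries. The shLIS1 libraries were nearly equal and every one was far above the highest control library. The means were 401 ± 1.19 CPM in shLIS1 and 136 ± 19.7 CPM in control cells (SD, n = 3 each), 2.94-fold higher in shLIS1 cells, with a log2 fold change of 1.56 (edgeR adjusted p = 2.9e-09, SE 0.08). This exceeded the log2 fold change of 99.1% of the tested genes. It was 1.08 (SE 0.13, adjusted p = 0.00074) with the offset and between 0.94 and 1.68 over all 17 alternatives. The gene has 3 start sites in the RefSeq table and 18 coding transcripts in GENCODE 29, between 490 and 22431 bases long, so the counts do not show which isoform rose.

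PLEC (ENSG00000178209, chromosome 8, 143915153 to 143976734, minus strand) encodes plectin, which ties β4 to keratin and is also found in other adhesions. It had 568, 515 and 497 CPM in shLIS1 libraries, against 566, 400.3 and 443 CPM in control libraries. Control library 1 was nearly as high as the highest shLIS1 library, and the other control libraries were below all shLIS1 libraries. The log2 fold change was 0.17 (95% confidence interval -0.18 to 0.51, edgeR adjusted p = 0.385). Without control library 1 it was 0.31 (adjusted p = 7.7e-06), and with the offset and all 6 libraries 0.32 (SE 0.05, adjusted p = 2.2e-05).

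CD151 (ENSG00000177697, chromosome 11, 832887 to 839831, plus strand), the tetraspanin partner of the laminin-binding integrins, was the only one of the 9 genes called lower. It had 124, 130.4 and 124 CPM in shLIS1 libraries, against 161, 172 and 168 CPM in control libraries. The groups did not overlap, and 75.5% of the control level was left, a log2 fold change of -0.41 (edgeR adjusted p = 1.5e-06, SE 0.05). With the offset the groups overlapped, and the log2 fold change was -0.04 (95% confidence interval -0.14 to 0.06, adjusted p = 0.522). The annotated span of CD151 shares 2476 bases with that of POLR2L on the opposite strand, and the counting strand is not given in the sources used here. Counts of POLR2L were 40.5% of those of CD151, so the CD151 counts are uncertain. POLR2L had a log2 fold change of -0.23 (edgeR adjusted p = 0.032), and of 0.015 with the offset (adjusted p = 0.908).

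**Figure D2:**
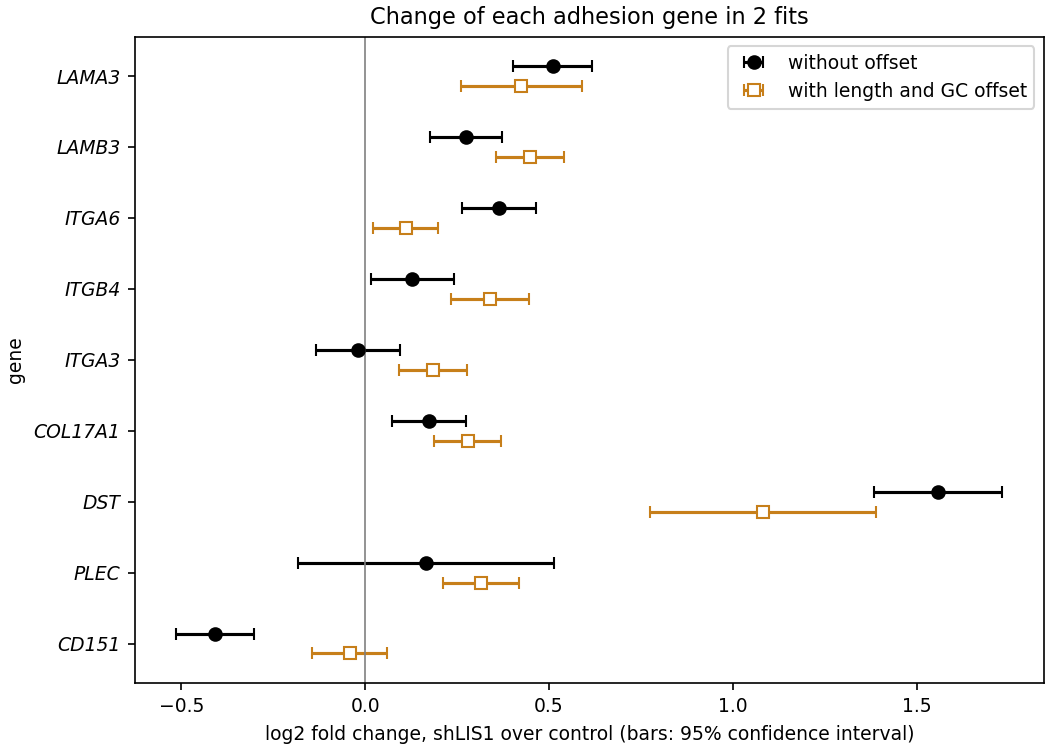
Log2 fold change of each gene (shLIS1 over control, horizontal axis) with its 95% confidence interval, from the fit without an offset (filled circles) and with the length and GC offset (open squares). DST is highest in both fits, at 1.56 and 1.08, ITGA6 is lower with the offset (0.11), and ITGB4, ITGA3 and PLEC are higher with it.

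Without the offset the 3 genes of lowest GC content had the 3 largest rises. DST, ITGA6 and LAMA3 have the lowest GC contents of the 9, at 41.3%, 42.9% and 50.7% of the longest transcript, and changed by 1.56, 0.36 and 0.51 on the log2 scale. The other 6 have 55.9% to 67.0%, with CD151 at 63.1%. With the offset the 3 largest rises were those of DST, LAMB3 and LAMA3. The offset takes the longest transcript of each gene, 22431 bases for DST and 10661 for LAMA3, and the epithelial isoforms of both genes are shorter.

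Per kilobase of the longest transcript, LAMB3 stood highest in shLIS1 cells at 199 ± 5.68 CPM per kb, followed by COL17A1 at 176 ± 5.996, ITGA6 at 146 ± 3.61, ITGA3 at 140.3 ± 3.72, ITGB4 at 84.0 ± 5.12, CD151 at 76.0 ± 2.29, PLEC at 34.5 ± 2.41, DST at 17.9 ± 0.0529 and LAMA3 at 17.6 ± 0.286 (SD, n = 3). In control cells the levels ran from 164 ± 3.94 CPM per kb for LAMB3 and 156 ± 5.51 for COL17A1 down to 12.3 ± 0.564 for LAMA3 and 6.06 ± 0.879 for DST. The values of ITGA6 and ITGA3, and of DST and LAMA3, overlapped in shLIS1 libraries, as did those of LAMB3 and COL17A1 in control libraries. ITGA3 stood above ITGA6 in control cells, at 142 ± 10.8 and 113 ± 3.53 CPM per kb. The levels of DST and LAMA3 are underestimates where shorter isoforms are the ones expressed.

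Ratios of counts between partner genes, which do not depend on library scaling, were compared for 6 pairs by a two-sided exact permutation test, for which 0.1 is the smallest p that 3 against 3 libraries allow. The log2 ratio of DST to PLEC was -0.50, -0.37 and -0.31 in shLIS1 libraries, against -2.26, -1.35 and -1.74 in control libraries. It was 1.39 higher in shLIS1 cells (exact permutation p = 0.1, 0.12 adjusted over the 6 pairs), and 0.78 higher with the offset, without overlap in either case. The lowest control value, -2.26, was that of control library 1, which stood apart on the second principal component and adds to the difference. The log2 ratio of CD151 to ITGA3 was -2.52, -2.38 and -2.44 in shLIS1 libraries, against -2.19, -1.89 and -2.09 in control libraries, a difference of -0.39, and of -0.22 with the offset. These were the 2 ratios that kept their direction.

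The log2 ratio of ITGA6 to ITGB4 was 0.24 higher in shLIS1 cells and that of ITGA6 to ITGA3 was 0.38 higher, both without overlap, and with the offset the differences were -0.23 and -0.08. The log2 ratio of LAMA3 to LAMB3 averaged -2.19 ± 0.0578 in shLIS1 and -2.43 ± 0.0518 in control libraries (SD, n = 3 each), a difference of 0.24 that was -0.02 with the offset. COL17A1 to ITGB4 differed by 0.05, with overlapping groups. For 5 of the 6 pairs the exact p was 0.1 without the offset, and for COL17A1 to ITGB4 it was 0.2.

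**Figure D3:**
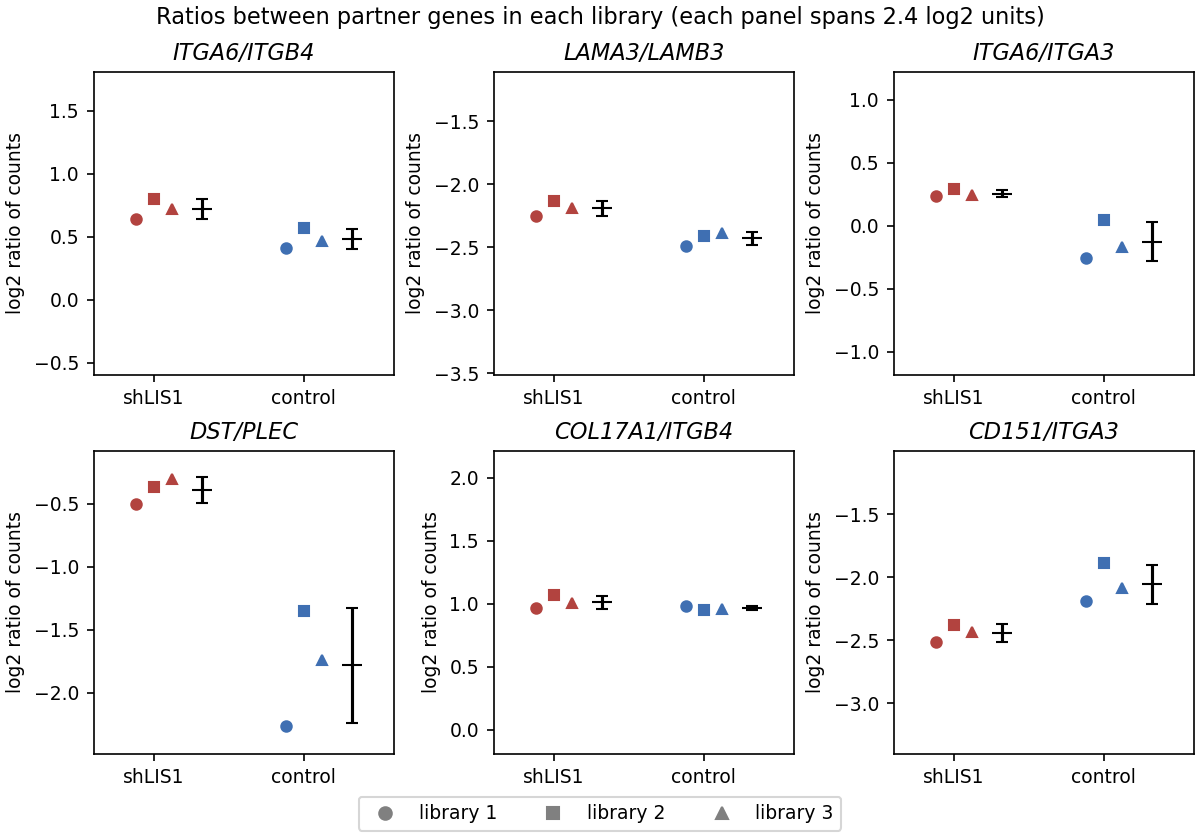
Log2 ratio of counts between partner genes (vertical axis, each panel spanning the same number of log2 units) in the 3 shLIS1 libraries (red) and the 3 control libraries (blue), with mean and SD. The DST to PLEC ratio differs most, by 1.39, and the COL17A1 to ITGB4 ratio overlaps between the groups.

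Among related genes calls were made in both directions. Of 20 tested genes of other laminin chains and the basement membrane, 5 were higher, 5 lower and 10 did not pass, with a median log2 fold change of 0.06 against -0.01 over all tested genes. These shares are near those of all tested genes, of which 23.5% were called higher and 24.9% lower. With the offset 5 were higher, 4 lower and the median was 0.01, against 17.7% of all genes higher and 24% lower. COL7A1, the collagen of the anchoring fibrils below the hemidesmosome, had 103 ± 7.40 CPM in shLIS1 and 74.4 ± 5.87 CPM in control cells (SD, n = 3 each), higher by 0.47 on the log2 scale, and by 0.64 with the offset. COL18A1 and NTN4, which encode collagen XVIII and netrin 4 of the basement membrane, fell with log2 fold changes of -0.52 and -0.51, or -0.32 and -0.57 with the offset. These 3 calls held with the offset.

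Of 17 tested integrin subunits and matrix receptors, 10 were higher, 4 lower and 3 did not pass, with a median of 0.21. With the offset 6 were higher, 3 were lower and the median was 0.08. The shares over all tested genes were 23.5% higher and 24.9% lower, and with the offset 17.7% and 24%. ITGA2, the α2 collagen receptor subunit, had 133 ± 3.72 CPM in shLIS1 and 72.1 ± 2.92 CPM in control cells (SD, n = 3 each), that is, a log2 fold change of 0.89, and 0.50 with the offset. ITGB3, the β3 subunit, had 11.3 ± 1.07 CPM in shLIS1 and 4.34 ± 0.493 CPM in control cells, a log2 fold change of 1.38, and 1.41 with the offset. BCAM, a receptor for laminins with the α5 chain, and DAG1, dystroglycan, fell with log2 fold changes of -0.65 and -0.24, or -0.40 and -0.16 with the offset.

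Of 10 plakins and giant cytoskeletal linkers, 5 were higher, 1 lower and 4 did not pass, with a median of 0.26, and with the offset 4 were higher, 0 lower and the median was 0.07. Of all tested genes 23.5% were called higher and 24.9% lower, and with the offset 17.7% and 24%. SYNE2, a nuclear envelope linker, and DSP, the desmosomal plakin desmoplakin, rose by 0.69 and 0.49, or by 0.25 and 0.34 with the offset. PPL, periplakin, fell with -0.18, a call that was lost with the offset (-0.01). The plakin MACF1 had the largest rise of these 10 genes without the offset, at 0.77, and was called higher at 0.36 with it. DST, at 1.56, was above all 10.

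Of 25 tested focal adhesion linkers and kinases, 5 were higher, 9 lower and 11 did not pass, and with the offset 5 were higher and 4 lower. Over all tested genes 23.5% were called higher and 24.9% lower, and with the offset 17.7% and 24%. The shares of this list called higher are near those over all tested genes. PTPN12 and FERMT1, kindlin-1 of the epidermis, rose by 0.55 and 0.50, or 0.33 and 0.43 with the offset, while TNS3 and FLNA fell with -0.53 and -0.34, or -0.45 and -0.16 with the offset. Of 16 tested tetraspanins other than CD151, 1 was higher, 12 were lower and 3 did not pass, with a median of -0.32, and with the offset 1 was higher, 8 were lower and the median was -0.22. TSPAN1 fell with -0.91 and TSPAN13 with -0.43, or -0.79 and -0.47 with the offset. The 1 call higher without the offset, TSPAN3 (0.13), was lost with it, and the 1 call higher with the offset was CD81, which turned from lower (-0.18) to higher (0.18). Of 12 tested proteases that cut laminin-332 or collagen XVII, 3 were higher and 5 lower, and with the offset 1 was higher and 5 lower. The share called higher without the offset is near the 23.5% of all tested genes. MMP7 and MMP14 fell with -0.90 and -0.40, or -0.96 and -0.22 with the offset, whereas ADAM10 and ADAM17, which can shed collagen XVII, rose by 0.53 and 0.29 but had 0.04 and 0.06 with the offset, which did not pass.

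**Figure D4:**
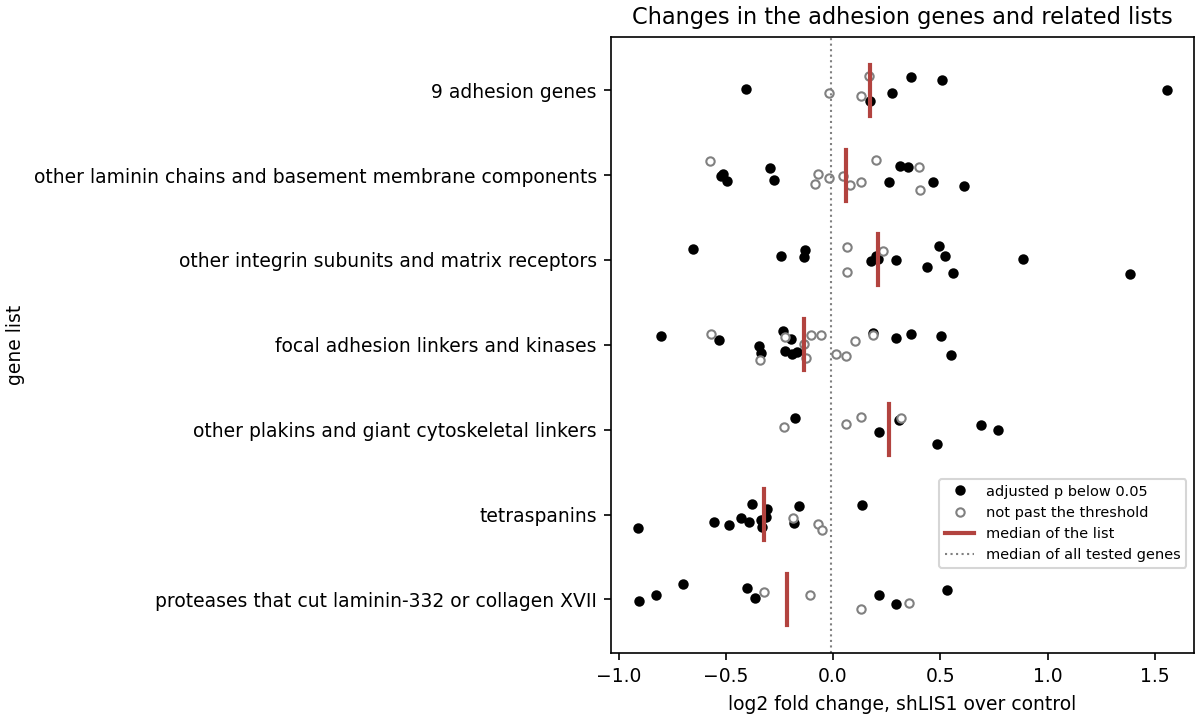
Log2 fold change (shLIS1 over control, horizontal axis) of the 9 adhesion genes and of the tested genes of 6 related lists, without the offset. Filled points passed the threshold, red bars are list medians and the dotted line is the median of all tested genes (-0.01). The tetraspanin median is -0.32 and that of the 9 genes is 0.17.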

How the data were processed

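Polyadenylated RNA was sequenced from dUTP strand-marked libraries, per the labels' protocols. The values are read counts per gene as deposited, not normalized by the authors, for 6 libraries, and the submitters' processing notes name build hg38. For the aligner, the counter, the annotation and the counting strand, nothing is stated in those sources.

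Counts were tested with edgeR 4.0.16 (R 4.3.3) after filterByExpr (minimum count 10, total 15) and TMM scaling, with robust glmQLFit and glmQLFTest and group as the single term, and Benjamini-Hochberg adjustment over 14964 genes. A standard error is the size of the log2 fold change divided by the root of F. Levels are TMM-scaled CPM, with the SD over libraries. The offset smoothed each library's deviation from the mean library over log2 length and GC content of the longest GENCODE 29 transcript (mgcv 1.9.3, basis size 6 per axis), available for 14491 genes. Other alternatives were RLE and upper quartile scaling, other filters, DESeq2 1.42.0, limma-voom (limma 3.58.1), non-robust fitting, a replicate block and leaving out each library. The offset without control library 1 was chosen after the data were seen. Scripts were tested on simulated data. Libraries of a group differed by more than sampling noise, with a chi-square per gene of at least 2.64. The same-numbered libraries were not taken as pairs. Sequences are from RefSeq.

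The 9 genes, the lists and the offset were chosen with earlier results of these data known. Genes named from a list are its 2 most significant rises and falls, except that 1 gene of the list of other laminin chains is not reported here. ITGB1, POLR2L, CD81 and MACF1 are also named, chosen after their values were seen.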

Additional observations from a re-analysis of the deposited data

How the results depend on the processing

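The 17 alternatives left DST, LAMA3, LAMB3 and COL17A1 higher and past the threshold in each. CD151 was lower in each and lost its call in the 3 fits with the offset. With the offset 8 of the 9 genes were higher and 0 lower, also without control library 1 (8 and 0), and with the replicate block added 7 were higher and 0 lower. The offset with the replicate block also left 23 genes of the related lists lower, against 36 without either. ITGA3, at -0.02, turned to 0.18 with the offset (0.19 with the replicate block added, 0.18 without control library 1), and lay between -0.072 and 0.015 on leaving out 1 library, turning to 0.015 without control library 1 and 0.0071 without control library 3. The log2 ratios that turned with the offset were ITGA6 to ITGB4 (-0.23), ITGA6 to ITGA3 (-0.075), COL17A1 to ITGB4 (-0.062) and LAMA3 to LAMB3 (-0.016). The cause was not tested. Without an offset PLEC was called higher in 3 and ITGB4 in 5 of 14 alternatives. On leaving out 1 library, 5 to 7 of the 9 genes were higher and 1 lower.

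No pairing by replicate number was visible: deviations of same-numbered libraries correlated at 0.02, 0.18 and -0.17 over 5960 genes, and not every library correlated best with its own number. The deviations are from a mean of 3 libraries, so this check cannot show that the libraries were not paired. With the replicate block 3484 genes were higher and 3682 lower, and 6 of the 9 genes were higher and 1 lower, the added call being PLEC (0.18, edgeR adjusted p = 0.022). Permuting within pairs, the exact ratio tests cannot go below p = 0.25. The differences in the 6 ratios are the same by construction, because each group has 3 libraries.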

Other observations

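The genes whose levels over the 6 libraries were most like those of COL17A1, by Pearson's r of log2 CPM and leaving out the other 8 genes, were SAA4 (0.996), MIR4435-2HG (0.995) and ENSG00000272669 (0.993). For ITGB4 they were HOMER2 (0.996), FBXO39 (0.983) and MYO5B (0.982). The 6 libraries form 2 groups of 3, so these values describe libraries that share a group as well as a scaling. Of these 6 genes, SAA4, ENSG00000272669 and MYO5B were called higher in shLIS1 cells, with log2 fold changes of 1.07, 0.96 and 0.41.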
